A study of Mus musculus with 22 samples.

Results

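Genes of MHC class II antigen presentation and of the B lineage were described in mouse haematopoietic stem cells (HSCs), the bone marrow cells from which blood and immune cells descend. The 10 genes were taken by symbol from the 55416 gene identifiers of the count tables, and all 10 were found. Cd74, H2-Aa, H2-Ab1, H2-Eb1, H2-DMa, H2-DMb1 and Ciita make up the class II group, and Cd79a, Cd79b and Ebf1 the B-lineage group. Each of the 10 passed the filter on low counts and was tested with 17366 genes in all. The libraries came from the bone marrow of 11 mice, 4 young animals of 2 to 3 months and 7 middle-aged animals of 12 to 15 months. In every mouse, lineage-depleted marrow was sorted for Lin-Sca1+Kit+CD150+CD48- cells, and these were divided by surface leptin receptor (LEPR). This gave 4 groups: LEPR+ and LEPR- cells of young mice (n = 4 libraries each) and LEPR+ and LEPR- cells of middle-aged mice (n = 7 libraries each). No transgene, knockout or treatment is named for any group, and the strain and the number of cells per library are not given in the sources used here. Males gave 2 of the 4 young and 2 of the 7 middle-aged pairs of libraries. The 2 libraries of a mouse share that animal, so the number of mice, not of libraries, is the number of independent animals.

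MHC class II molecules carry peptides to the cell surface, where CD4+ T cells read them. An α and a β chain are encoded by H2-Aa with H2-Ab1 and by H2-Eb1 with H2-Ea in the mouse. The invariant chain, encoded by Cd74, fills the groove of a new molecule, and H2-DM, the product of H2-DMa and H2-DMb1, later exchanges its remnant for peptide. Ciita is the transcriptional coactivator of this gene set. It does not bind DNA itself but joins a complex assembled on the X and Y boxes of class II promoters. Cd79a and Cd79b encode the paired signalling chains of the B cell receptor, and Ebf1 encodes a transcription factor that sets up the B lineage. These genes are textbook markers of B cells and other antigen-presenting cells, and class II is also known on stem and progenitor cells.

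In GRCm39 coordinates, the class II genes of the H2 complex lie close together on chromosome 17: H2-DMa (ENSMUSG00000037649.11, 34338515 to 34358958, plus strand), H2-DMb1 (ENSMUSG00000079547.5, 34372046 to 34379204, plus strand), H2-Ab1 (ENSMUSG00000073421.7, 34476663 to 34488393, plus strand), H2-Aa (ENSMUSG00000036594.16, 34493404 to 34506798, minus strand) and H2-Eb1 (ENSMUSG00000060586.12, 34504236 to 34535648, plus strand). Ciita (ENSMUSG00000022504.11) is on chromosome 16 from 10297923 to 10347694 and Cd79a (ENSMUSG00000003379.8) on chromosome 7 from 24596740 to 24601622, both on the plus strand. Chromosome 11 holds Ebf1 (ENSMUSG00000057098.15, 44508138 to 44898918, plus strand) and Cd79b (ENSMUSG00000040592.12, 106202167 to 106205588, minus strand). Each of the 10 genes is annotated as protein-coding.

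Class II promoters carry the boxes that Ciita acts through. The 110 bases before the canonical start are printed for 4 of them, 5′ to 3′ on the strand of the gene, from GENCODE vM39 starts on the GRCm39 genome. Capitals mark the Y box CTGATTGG, its core ATTGG or the complement CCAAT, and the X box. H2-Aa is read from chr17:34506798-34506907 on the minus strand, and the others from the plus strand at chr17:34482073-34482182 (H2-Ab1), chr17:34524703-34524812 (H2-Eb1) and chr17:34354450-34354559 (H2-DMa).
H2-Aa: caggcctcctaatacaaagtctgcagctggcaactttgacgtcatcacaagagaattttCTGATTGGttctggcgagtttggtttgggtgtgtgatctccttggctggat
H2-Ab1: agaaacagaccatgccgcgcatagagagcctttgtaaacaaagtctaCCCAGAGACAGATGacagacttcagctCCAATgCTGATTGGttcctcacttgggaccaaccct
H2-Eb1: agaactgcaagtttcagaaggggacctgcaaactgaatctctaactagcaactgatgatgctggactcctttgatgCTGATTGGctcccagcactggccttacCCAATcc
H2-DMa: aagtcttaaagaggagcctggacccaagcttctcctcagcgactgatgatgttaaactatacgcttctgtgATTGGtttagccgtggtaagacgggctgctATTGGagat

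The full Y box was found in the promoters of H2-Aa, H2-Ab1 and H2-Eb1, with its first base 51, 30 and 34 bases before the start. Over windows from 250 bases before to 50 after the start, searched on both strands, 3 of the 10 members held it, beside 5.02% of 21770 protein-coding promoters. The core, which every full Y box contains, was in 6 of 10 members and 39.9% of promoters, and the X box in 3 of 10 members and 1.22% of promoters. Of these patterns H2-DMa, printed for contrast, held only the core. Counted in bases from the start, the X box matches began at -63 in H2-Ab1, at -214 in Cd74 and at 22, after the start, in H2-DMb1. The X box was searched as a single pattern with set letters at fixed positions, so a variant that differs at such a letter was not counted. A promoter without a match, such as that of H2-Eb1 or H2-DMa, is thus not shown to lack an X box. All of these hits are matches of letters and no measure of binding.

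The depth of the 22 libraries was between 10.3 M and 61.7 M gene counts (M, mega), with a median of 33.0 M. Levels are given as CPM, read counts scaled to a common library size, after TMM scaling, and a count of 0 allows up to 3 counts, which is 0.0486 to 0.291 CPM in the single libraries before scaling. Reads amplified from very little RNA are not independent molecules, so such limits cover counting error only. The 11 HSC markers summed to between 814 and 2714 CPM. RNA of Lepr itself did not follow the sort: it was at 1 count or 0 in all 8 young libraries and above 3 counts in 3 LEPR+ and 2 LEPR- middle-aged ones. Among 3447 genes with a mean of 5 to 20 CPM, the share at 0 counts in a library averaged 23.4% and 32.4% in the LEPR+ and LEPR- libraries of young mice, and 6.84% and 4.68% in those of middle-aged mice. The LEPR+ library of mouse 6 stood apart from its group, at 27.6%. The highest share of all, 42.5%, was in the young LEPR- library of mouse 2, which also had the fewest genes detected, 12424. These shares move with age and with several on-or-off patterns below, and their part in them was not tested.

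Transcripts of the antigen-presenting part were present in nearly every library, whereas Ciita, Cd79a and Ebf1 were not. Cd74 was the most abundant member, at 148 ± 88.2 CPM per kilobase of exon (SD over 22 libraries), and its mean CPM was above that of 97.6% of tested genes. Per kilobase, H2-Ab1 followed at 84.7 ± 30.7, Cd79b at 69.3 ± 28.6, H2-DMb1 at 68.7 ± 24.7, H2-DMa at 57.2 ± 21.4, H2-Aa at 42.4 ± 19.7 and H2-Eb1 at 24.7 ± 17.9. These neighbours overlapped in spread. Far lower were Cd79a at 1.13 ± 2.83, Ciita at 0.611 ± 0.668 and Ebf1 at 0.127 ± 0.259 CPM per kilobase. Thus Cd79b was abundant and its partner chain Cd79a almost absent: Cd79b was counted in 22 of 22 libraries and Cd79a was at 0 in 15. H2-Ea, the partner chain of H2-Eb1 and not a member, was almost absent too. It had 29 counts over the 22 libraries (mean 0.0343 CPM), exceeded 3 counts in 3 of them and did not pass the filter. H2-Eb1 levels below are therefore those of 1 chain.

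**Figure D1:**
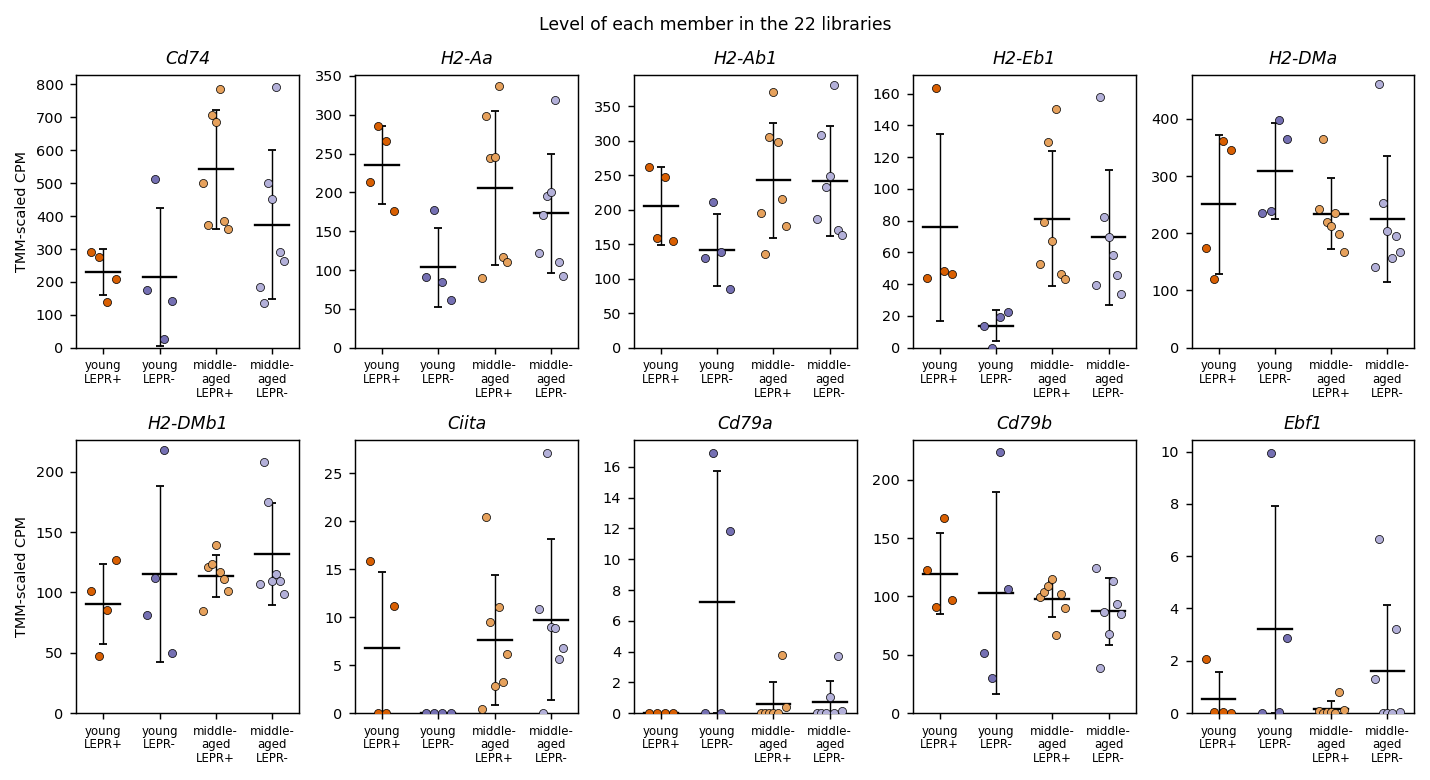
TMM-scaled CPM (vertical axis, linear, a separate scale per gene) of the 10 members in the 4 groups. Each point is a library, the bar is the group mean and the whisker 1 SD, cut at 0 downwards. H2-Eb1 was below 23 CPM in the 4 young LEPR- libraries only, and Ciita was at 0 in all 4 of them.

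The comparison of LEPR+ with LEPR- cells in young mice asked whether the receptor marks cells of different class II or B-lineage content at that age. H2-Eb1 had the widest separation among the class II chains. In mice 1 to 4, its level was 44.0, 164, 48.5 and 46.5 CPM in LEPR+ and 13.4, 0.0981, 19.4 and 22.3 CPM in LEPR- libraries. The groups did not overlap, and mouse 2 gave both the highest LEPR+ and the lowest LEPR- value. The fitted log2 fold change was 2.45 (SE 0.86, edgeR's quasi-likelihood test, adjusted p = 0.168), and 1.75 without the LEPR+ library of mouse 2. In bulk libraries, fewer cells with a transcript and less transcript per cell cannot be told apart. Of the 10 members, H2-Eb1 alone had non-overlapping groups here, beside 2.05% of all tested genes.

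H2-Aa, the α chain of the other class II molecule, was at 213, 285, 266 and 176 CPM in the young LEPR+ libraries of mice 1 to 4. The LEPR- libraries of the same mice held 91.6, 178, 84.4 and 61.2 CPM. LEPR+ was higher in 4 of 4 mice, and the groups overlapped only through the LEPR- library of mouse 2. The log2 fold change was 1.18 (SE 0.44, edgeR adjusted p = 0.177). Its partner H2-Ab1 was higher in LEPR+ cells of 3 of 4 young mice, with 206 ± 57.1 against 141 ± 52.1 CPM and a log2 fold change of 0.54 (SE 0.34, edgeR adjusted p = 0.561). H2-DMa went the other way in 4 of 4 young mice, but by little: 250.4 ± 122 CPM in LEPR+ and 309 ± 83.9 CPM in LEPR- cells (log2 fold change -0.30, SE 0.37, edgeR adjusted p = 0.936). H2-DMb1 was higher in LEPR+ cells of 2 of 4 young mice (log2 fold change -0.35, SE 0.38, edgeR adjusted p = 0.903). Cd74 differed little in its means, at 229 ± 69.6 CPM in LEPR+ and 214 ± 209 CPM in LEPR- cells (log2 fold change 0.10, SE 0.59).

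Marker sums moved with the fraction in the same young mice. The 11 HSC markers summed to 2042, 1555, 1399 and 2128 CPM in LEPR+ and to 1697, 1089, 814 and 1423 CPM in LEPR- libraries of mice 1 to 4. The 11 T or NK cell markers summed to 188, 77.7, 139 and 149 CPM in LEPR+ and 309.6, 172, 299 and 256 CPM in LEPR- libraries. Thus the HSC sum was higher and the T or NK sum lower in the LEPR+ library of each young mouse. The T or NK difference was largely that of Nkg7, with means of 70.3 CPM in young LEPR+ and 198 CPM in young LEPR- cells. Klrb1c went the other way, at 33.2 and 22.5 CPM. Slamf1, Hoxb5 and Cd48, whose product the sort excludes, had lower means in young LEPR+ cells, and the other HSC markers higher ones. H2-Eb1 and H2-Aa were also higher in those LEPR+ libraries, and the part of the marker sums in the class II values was not tested.

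Ciita and Cd79a were each at 0 in 1 young group. Ciita, the coactivator, was at 15.8, 0, 0 and 11.1 CPM in young LEPR+ mice 1 to 4 and at 0 in the 4 LEPR- libraries. Pooled over each group, it was at least 219-fold higher in LEPR+ cells, taking 3 counts over the group as the floor, and edgeR's adjusted p was 0.0748. Mice 2 and 3 had no count in either fraction, so the difference rests on mice 1 and 4. Without the LEPR+ library of mouse 2 or that of mouse 3, edgeR's adjusted p was 0.0383 and 0.0381. Cd79a was the mirror image, at 0 in the 4 young LEPR+ libraries and at 0, 16.9, 0 and 11.8 CPM in LEPR- mice 1 to 4. It was at least 229-fold lower in LEPR+ cells when pooled (edgeR adjusted p = 0.182), through the LEPR- libraries of mice 2 and 4.

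None of the 10 members was called in young mice by edgeR at an adjusted p under 0.05, beside 0.599% of all tested genes. At an unadjusted p under 0.05, 4 of 10 members passed (H2-Aa, H2-Eb1, Ciita and Cd79a), beside 16.1% of genes. DESeq2 called 3, namely H2-Eb1 (adjusted p = 0.0135), Ciita (1.33e-35) and Cd79a (3.06e-08). The latter pair are the genes with a group at 0. The median log2 fold change of the 10 was 0.16, beside 0 over all tested genes.

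In middle-aged mice the fractions were close. Cd74 was at 543 ± 181 CPM in LEPR+ and 374 ± 226 CPM in LEPR- cells (n = 7 each), higher in LEPR+ in 6 of 7 mice (log2 fold change 0.54, SE 0.44, edgeR adjusted p = 1). H2-Aa was also higher in LEPR+ cells of 6 of 7 mice, with 206 ± 99.3 against 173 ± 76.8 CPM (log2 fold change 0.25, SE 0.33, edgeR adjusted p = 1). H2-Eb1 was at 81.1 ± 42.4 against 69.6 ± 42.5 CPM, and H2-Ab1 at 243 ± 83.9 against 242 ± 79.9 CPM. Ebf1 had the smallest p among the members, at 0.154 ± 0.296 CPM in LEPR+ and 1.60 ± 2.53 CPM in LEPR- cells (log2 fold change -3.33, SE 1.88, edgeR adjusted p = 1). It was -0.97 with the mouse as block, -2.26 without the LEPR- library of mouse 6 and -5.08 without the LEPR+ library of mouse 10. By edgeR, 0 of the 10 members were called (background 0%), 0 passed an unadjusted p under 0.05 (background 0.875%), and DESeq2 called 0. No member had non-overlapping groups (background 0.00576%).

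**Figure D2:**
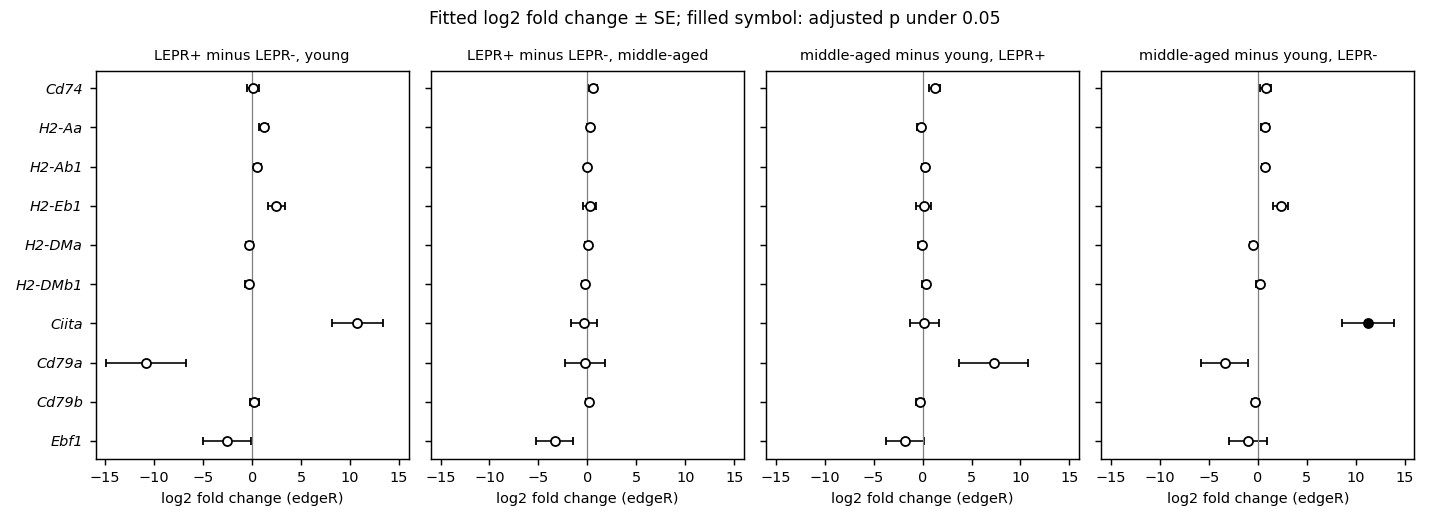
Log2 fold change of each member (horizontal axis, from edgeR) with its SE as whiskers in the 4 pairwise comparisons. Open symbols missed an adjusted p of 0.05 and the filled symbol, Ciita with age in LEPR- cells, passed it. Ciita and Cd79a sit far from 0 where a group has no counts, and there the fitted value is no measure of size.

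The age comparisons asked which members differ between middle-aged and young cells of the same fraction. In LEPR- cells Ciita rose. It was at 0 in all 4 young libraries, and in the 7 middle-aged ones the lowest, median and highest values were 0.0529, 8.82 and 27.1 CPM. The lowest, mouse 6, rests on 2 counts. The groups did not overlap on the values as counted. The 3-count limits of the young zeros, 0.0938 to 0.147 CPM, lie above the mouse 6 value, so within counting error the groups are not separated. Pooled, Ciita was at least 373-fold higher in middle-aged cells (edgeR log2 fold change 11.29, SE 2.63, adjusted p = 0.0282). Among tested genes with 5 CPM or more in middle-aged LEPR- cells, 156 of 10627 (1.47%) were likewise at 0 in all young LEPR- libraries. The share of 5 to 20 CPM genes at 0, given above, was 32.4% in the young and 4.68% in the middle-aged LEPR- group, and its part in this difference was not tested. Ciita was not called without young LEPR- replicate 2, 3 or 4 (adjusted p = 0.0629, 0.0642 and 0.0542), nor with the number of detected genes as a covariate (0.0587). Over all alternatives but DESeq2, its adjusted p lay between 0.00978, which was without both libraries of mouse 6, and 0.0642. With DESeq2 it was 9.47e-45.

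The structural class II genes had higher means with age in LEPR- cells without passing the test. H2-Eb1 in middle-aged LEPR- libraries had a lowest, median and highest value of 34.0, 58.4 and 158 CPM, all above the young maximum of 22.3 CPM. Its log2 fold change was 2.33 (SE 0.80, edgeR adjusted p = 0.0855). H2-Ab1 was at 242 ± 79.9 against 141 ± 52.1 CPM (log2 fold change 0.78, SE 0.31, edgeR adjusted p = 0.113). H2-Aa was at 173 ± 76.8 against 104 ± 51.0 CPM (0.74, SE 0.40, edgeR adjusted p = 0.237), and Cd74 at 374 ± 226 against 214 ± 209 CPM (0.80, SE 0.54, edgeR adjusted p = 0.362). The Cd74 value was 1.70 without young LEPR- mouse 2 and 0.36 without mouse 3. With the number of detected genes as a covariate, Cd74 was at 1.53 and H2-Aa at 1.61. The peptide-exchange chains had no common direction: H2-DMa was at 225 ± 110 against 309 ± 83.9 CPM and H2-DMb1 at 132 ± 42.1 against 115 ± 72.9 CPM. The log2 fold changes are to be read beside the median of 0.33 over all tested genes.

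In the LEPR- age comparison edgeR called 1 of 10 members, beside 3.84% of tested genes, and 3 of 10 had an unadjusted p under 0.05, beside 28%. Ciita and H2-Eb1 had non-overlapping groups on the values as counted, 2 of 10 members beside 5.06% of genes. For Ciita this does not hold within counting error, as given above. DESeq2 called 3 members, Ciita, H2-Eb1 (adjusted p = 0.00354) and H2-Ab1 (adjusted p = 0.0391).

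In LEPR+ cells, Cd74 (ENSMUSG00000024610.16, chromosome 18 from 60936899 to 60945731, plus strand) was the member that separated the ages. Mice 1 to 4 had 290.6, 277, 139 and 209.8 CPM, while the 7 middle-aged libraries had a lowest, median and highest value of 359.8, 502 and 786 CPM. The groups did not overlap, and the mean was 2.37-fold higher (log2 fold change 1.24, SE 0.55, edgeR adjusted p = 0.212), beside a median of 0.25 over all tested genes. H2-Aa, H2-Ab1 and H2-Eb1 did not share this: their young means in LEPR+ cells were 235 ± 50.1, 206 ± 57.1 and 75.7 ± 58.7 CPM, and their middle-aged means 206 ± 99.3, 243 ± 83.9 and 81.1 ± 42.4 CPM. Ciita in LEPR+ cells was at 6.73 ± 8.00 CPM before and 7.64 ± 6.78 CPM at middle age. EdgeR called 0 of 10 members (background 0.173%), 1 of 10 had an unadjusted p under 0.05 (background 19.7%), and DESeq2 called 1, Cd79a. Cd74 alone had non-overlapping groups (1 of 10, background 3.04%).

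The difference between the ages in the LEPR effect, tested as an interaction, addressed whether the young pattern is lost by middle age. For H2-Eb1 the interaction was -2.23 (log2, SE 1.03, edgeR adjusted p = 0.355; with LEPR+ mouse 2 left out, -1.51), for H2-Aa -0.93 (SE 0.55, edgeR adjusted p = 0.602), for Ciita -11.10 (SE 2.79, edgeR adjusted p = 0.113) and for Cd79a 10.63 (SE 4.30, edgeR adjusted p = 0.276). EdgeR called 0 of 10 (background 0.236%), 3 of 10 had an unadjusted p under 0.05 (background 12.8%), and DESeq2 called 2, Ciita and Cd79a. The H2-Eb1 and H2-Aa differences of young mice were thus not shown to differ from those of middle-aged mice.

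Other genes of antigen presentation were followed in 3 lists. A list of 22 further class II pathway genes (accessory chains, cathepsins, promoter factors and costimulators) had 20 tested members. Ctsb, a lysosomal protease, was the 1 gene edgeR called in any comparison (1 of 20, beside 3.84% of all tested genes): its LEPR- level was 427 ± 90.5 CPM with middle age against 237 ± 65.1 CPM before (log2 fold change 0.85, SE 0.24, edgeR adjusted p = 0.0491). The list's median log2 fold change was -0.09 in that comparison, beside 0.33 over all tested genes, and 0.11 with age in LEPR+ cells. None of the 12 interferon-gamma signalling genes, the pathway known to induce Ciita, was called in any comparison by edgeR, and 1 of 12 had an unadjusted p under 0.05 with age in each fraction (background 19.7% in LEPR+ and 28% in LEPR-) and 0 in the other comparisons. DESeq2 called 1 of them with age in each fraction. Of 12 MHC class I genes, none was called by edgeR or DESeq2, and 2 of 12 had an unadjusted p under 0.05 by edgeR with age in LEPR+ cells (background 19.7%) and 0 in the other comparisons. The median log2 fold changes of these 2 lists with age in LEPR- cells were 0.29 and 0.07.

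Members were next compared across libraries, to see whether they move together. No single pattern covered them. Over the 22 libraries the 15 pairs among Cd74 and the 5 structural or exchange genes had a median Pearson r of 0.16, from -0.47 to 0.66, on log2(CPM + 0.5). The highest was H2-Aa with H2-Ab1, the 2 chains of one molecule, at r = 0.66, and 0.62 after the group means were removed. Cd74 with H2-Ab1 was at 0.56 and 0.39, Cd74 with H2-Aa at 0.53 and 0.50, and H2-Ab1 with H2-DMb1 at 0.44 and 0.42. The H2-DM partners were at 0.39 and 0.53. In contrast, Cd74 with H2-DMa was at -0.47, and Cd74 with H2-Eb1 went from 0.16 to -0.40 once group means were removed. In the young LEPR- library of mouse 2, Cd74 was at 513 CPM, the highest of its group. H2-Eb1 was there at 0.0981 CPM, on 2 counts, the lowest of all libraries. The part of that library in the value of -0.40 was not tested. Ciita had positive r with 5 of the 6 class II genes (median 0.33), and with 3 of 6 after group means were removed (median 0.03). Each mouse gave 2 of these libraries, so these values are descriptions.

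**Figure D3:**
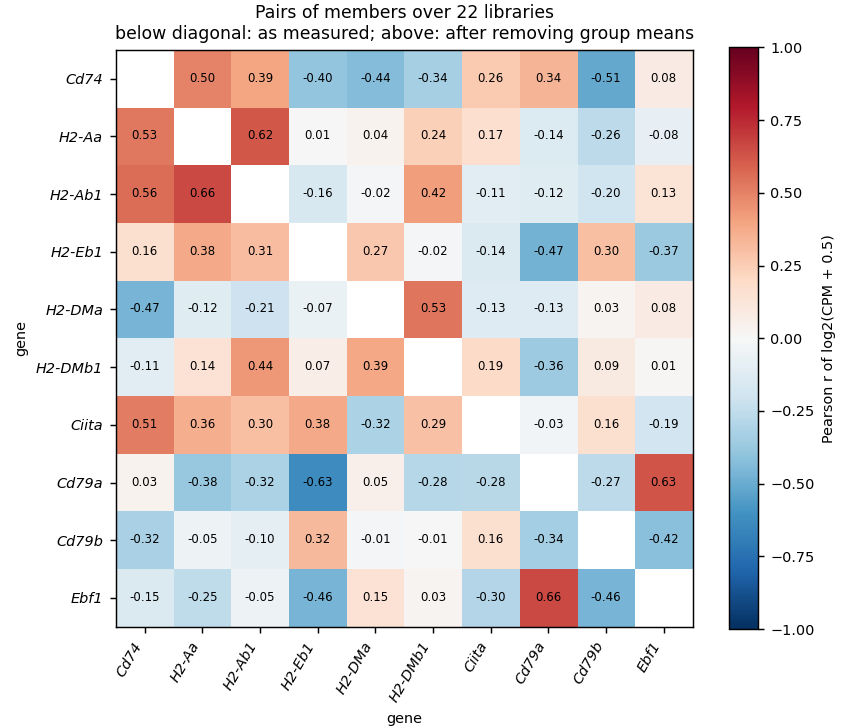
Pearson r of log2(CPM + 0.5) for each pair of members over 22 libraries, with rows and columns in the same order. Values below the diagonal are as measured and those above it after subtracting group means; the strongest positive pairs are H2-Aa with H2-Ab1 (0.66) and Cd79a with Ebf1 (0.66).

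Within a fraction, where each mouse counts once, 18 correlations with Cd74 were tested over 11 mice and none passed an adjusted p of 0.05. The strongest was H2-Aa in LEPR- cells, with r = 0.70 (permutation p = 0.0144, adjusted 0.260) and Spearman rho = 0.78 (permutation p = 0.00672, adjusted 0.121). Without the 2 mice farthest from the median of Cd74 it was 0.65, and over the 7 middle-aged mice 0.66. H2-Ab1 was at r = 0.56 in LEPR- cells (permutation p = 0.0756, adjusted 0.272, rho = 0.56 with p = 0.0774, 0.41 without the farthest 2 mice). H2-DMa went the other way in LEPR- cells, at r = -0.61 (permutation p = 0.0432, adjusted 0.272), rho = -0.53 (p = 0.100) and -0.36 without the farthest 2 mice. Over the 11 LEPR+ libraries, H2-Ab1 was at r = 0.50 (permutation p = 0.115, adjusted 0.346) and H2-Eb1 at 0.47 (permutation p = 0.141, adjusted 0.362). H2-Aa was at 0.03 (permutation p = 0.919) and Cd79b at -0.56 (permutation p = 0.0711, adjusted 0.272). Cd74 separates the ages in LEPR+ cells, so the values within the 7 middle-aged mice are given too. H2-Ab1 was there at 0.87 (exact permutation p = 0.0232) and rho 0.79 (p = 0.0480). H2-Eb1 was at 0.77 (exact permutation p = 0.0534) and rho 0.79 (p = 0.0480), and H2-Aa at 0.56 (exact permutation p = 0.166) and rho 0.46 (p = 0.302). In LEPR- cells of those 7 mice H2-Eb1 was at r = -0.15. The p-values over 7 mice are not adjusted. The number of young mice, 4, is too small for a value of their own.

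Cd74 levels in the 2 fractions of a mouse were compared next. The Cd74 mean was higher at middle age in both fractions, at 543 against 229 CPM (LEPR+) and 374 against 214 CPM (LEPR-). An r over mice of both ages therefore cannot tell age from mouse. Between the LEPR+ and LEPR- libraries of the same mouse, r was 0.80 over 11 mice (permutation p = 0.00270, adjusted over 10 members 0.0270), while Spearman's rho was 0.65 (permutation p = 0.0367, adjusted 0.367). Mouse 9 was at 786 and 791 CPM, the top of both fractions, and mouse 3 at 139 and 27.4 CPM, the bottom of both. Without the 2 mice farthest from the median r fell to 0.52, so the relation rests in part on those mice. Within the 7 middle-aged mice it was 0.82 (exact permutation p = 0.0304, adjusted 0.152). H2-Aa had r = 0.53 over 11 mice (permutation p = 0.0984, adjusted 0.328), rho = 0.50 (p = 0.124) and 0.60 without the farthest 2, and 0.88 within the middle-aged (exact permutation p = 0.0115, adjusted 0.115). H2-Eb1 was at -0.23 over all mice (permutation p = 0.536, adjusted 0.779), rho 0.30 (p = 0.369), and 0.74 without the farthest 2.

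**Figure D4:**
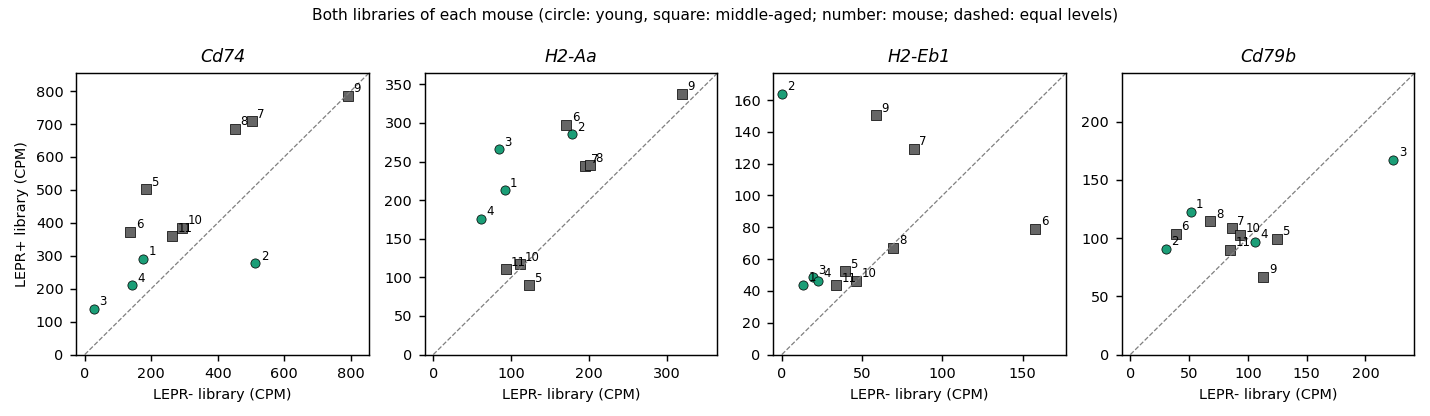
Level of 4 members in the LEPR+ library (vertical axis, CPM) against the LEPR- library (horizontal axis, CPM) of each of 11 mice, numbered as in the labels. The dashed line marks equal levels. For Cd74 mouse 9 is at the top of both axes and mouse 3 at the bottom, and for H2-Eb1 mouse 2 stands at 164 and 0.0981 CPM.

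The genes named as most like Cd74 over the 22 libraries were not class II genes. Of the 10594 genes whose mean reached 5 CPM, those with the highest r included Msn (0.87), Eng, Il2rg, Cab39l, Treml2, Ppp4r3b, Ifnar1, Hlf and Nr2c2 (0.81). Eng encodes an accessory receptor for TGF-β ligands, and Hlf a transcription factor of HSCs. Hlf ranked first once group means were removed, at 0.86. H2-Ab1 ranked 827th by r, H2-Aa 1126th and Ciita 1279th, and H2-DMa was near the end at 9646th.

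Among the B-lineage genes, Cd79b was counted in all libraries and Cd79a and Ebf1 in few. Cd79b had similar means in the 4 groups: 119 ± 34.9 CPM (LEPR+) and 103 ± 86.8 CPM (LEPR-) at the young age, 97.9 ± 15.7 CPM (LEPR+) and 87.0 ± 28.4 CPM (LEPR-) later. Its spread was widest in young LEPR- cells, from 30.0 CPM in mouse 2 to 224 CPM in mouse 3. Its r with Cd79a was -0.34. Cd79a and Ebf1 each exceeded 3 counts in 7 of 22 libraries, 4 of them shared, and 12 libraries had neither. Their r was 0.66, and 0.63 after group means were removed.

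The 4 shared libraries were young LEPR- of mice 2 and 4 and both libraries of mouse 10. Ebf1 was at 9.96 and 2.88 CPM in the first pair and at 0.820 (LEPR+) and 3.21 CPM (LEPR-) in mouse 10. Cd79a was at 3.76 and 3.73 CPM in mouse 10, and 133 of the 144 Cd79a counts of the middle-aged LEPR+ group came from that mouse. The age difference of Cd79a in LEPR+ cells (log2 fold change 7.26, SE 3.50, edgeR adjusted p = 0.259, at least 20.4-fold higher pooled) was 4.12 without that library. With age in LEPR- cells Cd79a was at 0.692 ± 1.39 against 7.19 ± 8.56 CPM (log2 fold change -3.37, SE 2.38, edgeR adjusted p = 0.403), and the fold change was -2.62 without young LEPR- mouse 2, -5.23 without middle-aged LEPR- mouse 10 and -14.30 with the number of detected genes as a covariate.

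Other B-lineage transcripts were looked up in those libraries after their values had been seen. In both libraries of mouse 10, Igll1 and Vpreb3 (surrogate light chain and its relative), Pax5 (a B-lineage transcription factor) and Ms4a1 (the antigen CD20) all exceeded 3 counts. Igll1 was at 4.38 CPM in the LEPR- and 0.651 CPM in the LEPR+ library, and no other library exceeded 3 counts. Ighm, the μ heavy chain, was at 269.6 CPM in LEPR+ and 17.7 CPM in LEPR- cells of this mouse, and Igkc, the κ light chain, at 431 and 9.59 CPM. Of 31 early lymphoid and B-lineage genes in the tables, 26 exceeded 3 counts in the LEPR+ and 24 in the LEPR- library of mouse 10, against 7 to 19 elsewhere. The depth of these libraries, 33.4 M and 29.6 M counts, was near the median. These libraries also detected many genes, 21172 and 21015, and had 0.174% and 0.0580% of the 5 to 20 CPM genes at 0, and the part of that in their B-lineage counts was not tested.

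The young LEPR- libraries carried other combinations. Mouse 2 had Ly6d, an antigen of early lymphoid cells, at 23.5 CPM and no count of Ighm, Vpreb3 or Igll1. Mouse 4 had Vpreb3 at 7.19 CPM and Ighm at 39.5 CPM and no Ly6d or Igll1. Of the 33 listed B-lineage genes, 16 were tested, and edgeR called 1, Bach2, a transcriptional repressor of lymphoid cells. It rose with age in LEPR- cells, from 0.0315 ± 0.0442 to 8.93 ± 6.58 CPM (log2 fold change 7.93, SE 1.95, edgeR adjusted p = 0.0319), which is 1 of 16, beside 3.84% of all tested genes. The Bach2 mean was also higher with age in LEPR+ cells, at 12.9 ± 10.7 against 0.329 ± 0.189 CPM, without a call by edgeR. Both libraries of mouse 6 had 0 counts of Bach2. DESeq2 called 2 of the list with age in LEPR- cells, 3 with age in LEPR+ cells and 1 for LEPR in young mice. The list's median log2 fold change was 0.35 with age in LEPR- cells and 0.85 with age in LEPR+ cells, beside 0.33 and 0.25 over all tested genes.

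**Figure D5:**
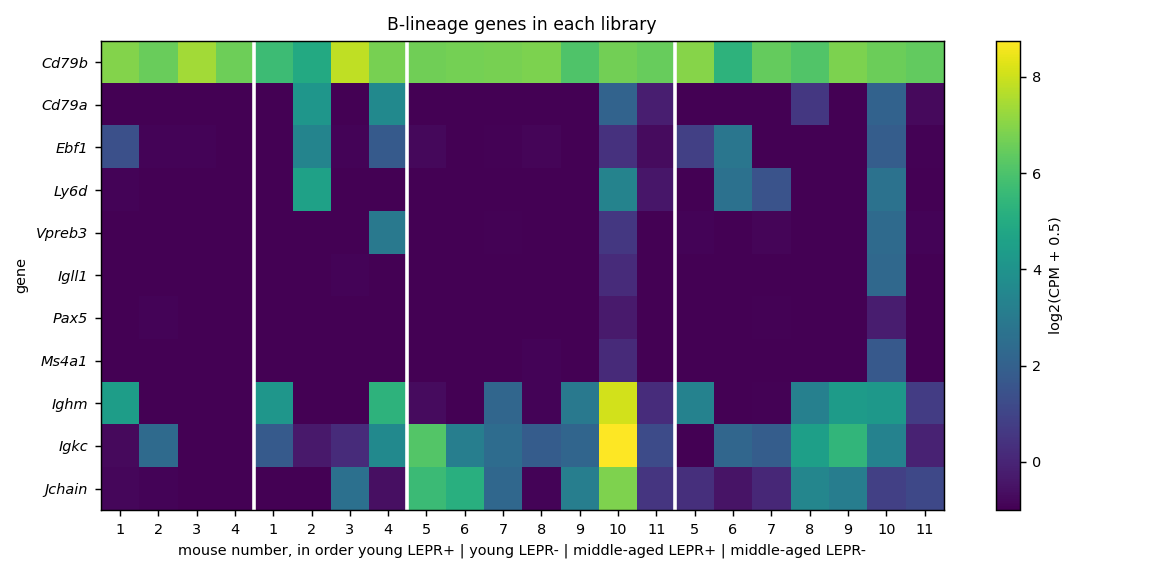
Level of 11 B-lineage genes as log2(CPM + 0.5) in colour, genes in rows and the 22 libraries in columns, with white lines between groups. Cd79b is present throughout, Cd79a and Ebf1 in few libraries, and mouse 10 carries the most genes in both fractions.

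Markers of mature cells that express class II were measured in the same libraries. The 12 mature B-cell markers summed to 6.08 to 88.9 CPM in 21 libraries and to 729 CPM in the LEPR+ library of mouse 10. Ms4a1 exceeded 3 counts in 2 libraries and Ighd in none. The class II levels of mouse 10 were not high: Cd74 was at 385 and 292 CPM and H2-Aa at 117 and 111 CPM in LEPR+ and LEPR- cells. The 10 dendritic-cell markers summed to 122 to 229.9 CPM in young and 81.0 to 187 CPM in middle-aged libraries, and Itgax, which encodes CD11c, was at 0 in all 22. Bst2, which many cell types express, carried that sum with a mean of 134 CPM, and the next were Zbtb46 at 4.42 and Clec9a at 3.81 CPM. The 11 monocyte and macrophage markers summed to 353 to 736 CPM in young and 238 to 552 CPM in middle-aged libraries, largely through Lyz2 with a mean of 409 CPM. The part of such cells in the class II values was not tested beyond these levels.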

How the data were processed

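Bulk poly(A) RNA of sorted bone marrow cells was sequenced from low-input libraries. The submitters' processing notes name FastQC, cutadapt, STAR, HTSeq and DESeq2 and the build GRCm39 (mm39), with no versions. The deposited values are raw read counts per gene, 1 file per library. The annotation release and strand setting are not given in the sources used here, so reads where H2-Aa and H2-Eb1, which lie on opposite strands, overlap cannot be assigned, and the same holds for H2-DMa beside Brd2 and Ciita beside Dexi. Summary lines, for reads not assigned to a gene for any reason, held 29.1% to 40.3% of records and were left out. Symbols came from GENCODE vM39 for 54749 of 55416 identifiers.

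Groups were compared with edgeR 4.0.16 (quasi-likelihood, R 4.3.3) in 1 fit over 22 libraries, with TMM scaling and filterByExpr (minimum count 10, total 15), which kept 17366 genes. P-values were adjusted by Benjamini-Hochberg over these genes and a gene was called under 0.05. The common dispersion was 1.76. Correlations used log2(CPM + 0.5) and 100000 permutations, or all of them for 7 mice. DESeq2 1.42.0 was an alternative. Both fractions carry a mouse number in the labels, so libraries are paired within mice. As a check, deviations from group means correlated within a mouse at 0.0593 to 0.707 (median 0.152), and 10 of 11 LEPR+ libraries matched their own mouse best. No 2 libraries were identical. The main edgeR fit does not use this pairing. Its p-values measure the spread between libraries of a group, not that of the differences within mice.

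The 10 members and the gene lists were chosen with earlier results of these data known. All members are named, as are list genes that were called, markers at 0 and, of the 10 genes most like Cd74, those reported here; some items are not reported here.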

Additional observations from a re-analysis of the deposited data

Results flagged for a closer look

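In 6 of the 38 sets of values tested (a member in a group, on the log2(CPM + 0.5) scale), 1 library stood apart by Dixon's criterion. Chance gives about 1 in 20 where values are normally distributed. That rate does not apply to the flagged Cd79a and Ebf1 sets, which lie mostly at 3 counts or fewer. This held for 5 of 7 middle-aged LEPR+ libraries for Cd79a. For Ebf1 it held for 6 of 7 middle-aged and 3 of 4 young LEPR+ libraries. For H2-Eb1 both were mouse 2: its young LEPR+ library was at 164 CPM, with the next at 48.5 CPM, and its young LEPR- library at 0.0981 CPM, with the next at 13.4 CPM. Ciita was at 0.0529 CPM in the middle-aged LEPR- library of mouse 6, and the next was at 5.59 CPM. The LEPR+ library of mouse 10 stood apart for both sparse B-lineage genes, with Cd79a at 3.76 CPM (next 0.388 CPM) and Ebf1 at 0.820 CPM (next 0.106 CPM). Ebf1 was at 2.08 CPM in the young LEPR+ library of mouse 1, where the next was at 0.0356 CPM. The causes were not tested.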

How the results depend on the processing

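Calls depended on the tool and on single libraries more than on scaling. With DESeq2 the genes called were 1944 (LEPR in young mice), 1 (LEPR in middle-aged mice), 1881 (age in LEPR+), 3513 (age in LEPR-) and 1421 (interaction), against 104, 0, 30, 667 and 41 by edgeR, and the members called were 3, 0, 1, 3 and 2. Without both libraries of mouse 6, the counts were 221, 671, 2260 and 91 for LEPR in young mice, age in LEPR+, age in LEPR- and the interaction, and 1 member, Ciita (adjusted p = 0.0448), was called for LEPR in young mice. With no filter on low counts 61, 13 and 239 genes were called in the first 3 of these. With only the 2 groups compared, 0 were called for LEPR in young mice and 14 for age in LEPR+. With the number of detected genes as a covariate, 3 and 127 were called for age in LEPR+ and LEPR-, members fell from 1 to 0, and Cd79a with age in LEPR+ reversed to -1.10. With the mouse as replicate block, 25 genes were called for LEPR in young mice, 1 in middle-aged mice and 7 for the interaction, and no member. The block changed no member's call. In young mice edgeR's adjusted p with the block was 0.0531 for H2-Aa, 0.461 for H2-Eb1, 0.253 for Ciita and 0.396 for Cd79a. The age comparisons are between different mice and could not be paired. Leaving out 1 library at a time gave 82 to 186 genes and 0 to 1 members for LEPR in young mice, 12 to 112 genes for age in LEPR+, 280 to 1668 genes and 0 to 1 members for age in LEPR-, and 31 to 114 genes for the interaction. The r of Cd74 between fractions was 0.82 over the middle-aged mice and 0.52 without the 2 farthest mice, alternatives chosen after seeing the data, and neither passed. The causes were not tested. Ciita, Cd79a and Ebf1 were at 3 counts or fewer in 7, 15 and 15 of 22 libraries, and their values rest on the other libraries.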
